A study of Mus musculus with 36 samples.

Results

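Genes that mark blood monocytes were followed in whole mouse blood 7 days after x-ray, neutron, or mixed field exposure. They were 9 genes, Csf1r, Ccr2, Cd14, F13a1, Cx3cr1, Nr4a1, Fcgr4, Ace, and Treml4, chosen by name and read by 14 of the 39429 non-control probes of the array. The mice were male C57BL/6J, 8 to 10 weeks old at irradiation, and each of 36 mice gave 1 array, 6 per group. Controls were sham-irradiated. One group received 3 Gy of x-rays. The mixed fields, at 5, 15, and 25% neutrons, contained 0.15, 0.45, and 0.75 Gy of neutrons within a total of 3 Gy. The neutron group received 0.75 Gy of neutrons without x-rays. Its labels give the neutron share as 100%, whereas the study's methods put the neutrons from the source at 83% of its dose, so that total dose and neutron share differed together from the mixed fields. RNA came from unsorted blood lysed at collection, and in such bulk samples fewer cells of a type and less RNA per cell cannot be told apart.

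Mouse blood holds classical monocytes, which leave the bone marrow and enter inflamed tissue, and patrolling monocytes, which arise largely from them and crawl along the vessel wall. Both carry the growth factor receptor encoded by Csf1r. Classical cells carry the chemokine receptor Ccr2, which draws them out of the marrow, whereas patrolling cells carry the fractalkine receptor Cx3cr1 at a high level and depend on the nuclear receptor Nr4a1. None of these genes is exclusive to monocytes. Cx3cr1 is also made by natural killer cells, Fcgr4 and Cd14 by neutrophils, F13a1 by the megakaryocyte lineage, and Nr4a1 by stimulated lymphocytes.

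Values are log2 intensities minus the median of the array, and a difference of 1 is a doubling relative to that median. All 14 probes were kept by the filter on background and 13 by that on variation between arrays. Each gene was represented by its brightest probe, so that 9 of 9 genes were among the 15085 tested. These 9 probes were well above background on all 36 arrays, except that for Cd14, which missed 1 neutron array. A gene was called where limma gave an unadjusted p below 0.001 and a p below 0.05 after Benjamini-Hochberg adjustment over all genes. The monocyte identity of the signal was checked on markers that are not among the 9 genes. All 11 further genes shared by both subsets, 8 of 11 of the classical list and 9 of 9 of the patrolling list were above background.

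The promoters of the 3 patrolling-cell genes with the highest differences after neutrons, Cx3cr1, Nr4a1, and Ace, are shown here as the 250 bases before the annotated start, from RefSeq on GRCm38.p6. They lie at chr9:120068297-120068546 on the minus strand, chr15:101266596-101266845 on the plus strand, and, for the first of 2 annotated starts of Ace, chr11:105967698-105967947 on the plus strand. Capitals mark matches on either strand to CACCC, a core bound by Klf factors, to GAGGAA, bound by the myeloid factor PU.1, and to TGCGTCA, a sequence close to the sites of AP-1 and CREB. The last was added after the Nr4a1 promoter had been read.
Cx3cr1: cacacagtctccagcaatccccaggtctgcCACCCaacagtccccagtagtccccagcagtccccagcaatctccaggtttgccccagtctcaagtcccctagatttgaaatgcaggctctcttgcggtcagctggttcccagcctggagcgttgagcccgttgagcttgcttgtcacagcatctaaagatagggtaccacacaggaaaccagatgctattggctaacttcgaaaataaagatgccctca
Nr4a1: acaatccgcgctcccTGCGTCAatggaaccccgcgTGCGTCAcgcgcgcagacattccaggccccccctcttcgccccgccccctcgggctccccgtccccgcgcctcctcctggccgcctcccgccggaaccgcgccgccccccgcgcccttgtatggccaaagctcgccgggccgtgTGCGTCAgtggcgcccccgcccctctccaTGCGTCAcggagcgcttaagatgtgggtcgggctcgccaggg
Ace: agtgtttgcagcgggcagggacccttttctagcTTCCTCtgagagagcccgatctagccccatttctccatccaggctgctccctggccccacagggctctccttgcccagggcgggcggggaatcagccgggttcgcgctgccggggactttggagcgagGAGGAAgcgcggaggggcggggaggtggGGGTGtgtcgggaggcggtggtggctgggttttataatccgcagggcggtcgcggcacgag
The Cx3cr1 stretch held 1 match, a CACCC at 220 bases before the start. The Ace stretch held 2 matches to GAGGAA and 1 to CACCC. The Nr4a1 stretch held 4 matches to TGCGTCA, and it was the single one of 32851 mouse promoter stretches of this length with 4 or more. At least 1 match was found in 1.75% of them for TGCGTCA, 23.3% for GAGGAA, and 52% for CACCC. Searches for AAAGGTCA (bound by Nr4a1 itself), for a pair of interferon regulatory factor half-sites, and for TTGCNNAA (C/EBP) found a match in 1 of the 9 stretches on hand for 7 of the 9 genes, the pair of half-sites in that of Fcgr4 (2.98% of all promoters, with 1.34% for AAAGGTCA and 9.56% for TTGCNNAA). None of the marked matches overlap, and no motif was found in all 3 printed stretches.

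Exposure to 0.75 Gy neutrons was followed by higher Cx3cr1, Ace, and Csf1r, the called genes among the 9, and none was called lower. Background in this comparison was high, with 36.6% of all genes called and 16.1% called higher, so that 3 of 9 is near the share of all genes. The changes were 1.30 ± 0.20 (SE) for Cx3cr1, 0.93 ± 0.15 for Ace, and 0.82 ± 0.17 for Csf1r on the log2 scale, with 6 arrays per group. In one limma model over all 36 arrays the differences were the same but none of the 3 was called (adjusted p = 0.0118 for Cx3cr1, 0.00542 for Ace, and 0.00617 for Csf1r). The median difference of the 9 genes was 0.55, compared with -0.12 over all genes tested. After the 4 exposures of 3 Gy, 0 of 9 genes were called against controls, where 29.8% of all genes were called after x-rays, 23.1% at 5%, 29.1% at 15%, and 24.8% at 25%. With the adjusted p alone, 1 of 9 passed at 5% (Cd14) and 0 after x-rays, at 15%, and at 25%, compared with 44.5, 58.9, 49.7, and 47% of all genes, respectively. After neutrons 5 of 9 passed by that rule (59.6% of all genes), Nr4a1 and Fcgr4 being added. At an unadjusted limma p below 0.05, the count was 0 after x-rays, 2 at 5%, 1 at 15%, 0 at 25%, and 5 after neutrons. The share of all genes by this rule was not computed, so that these counts have no background. For Cx3cr1 after x-rays the 95% interval ran from -1.22 to 0.39.

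**Figure D1:**
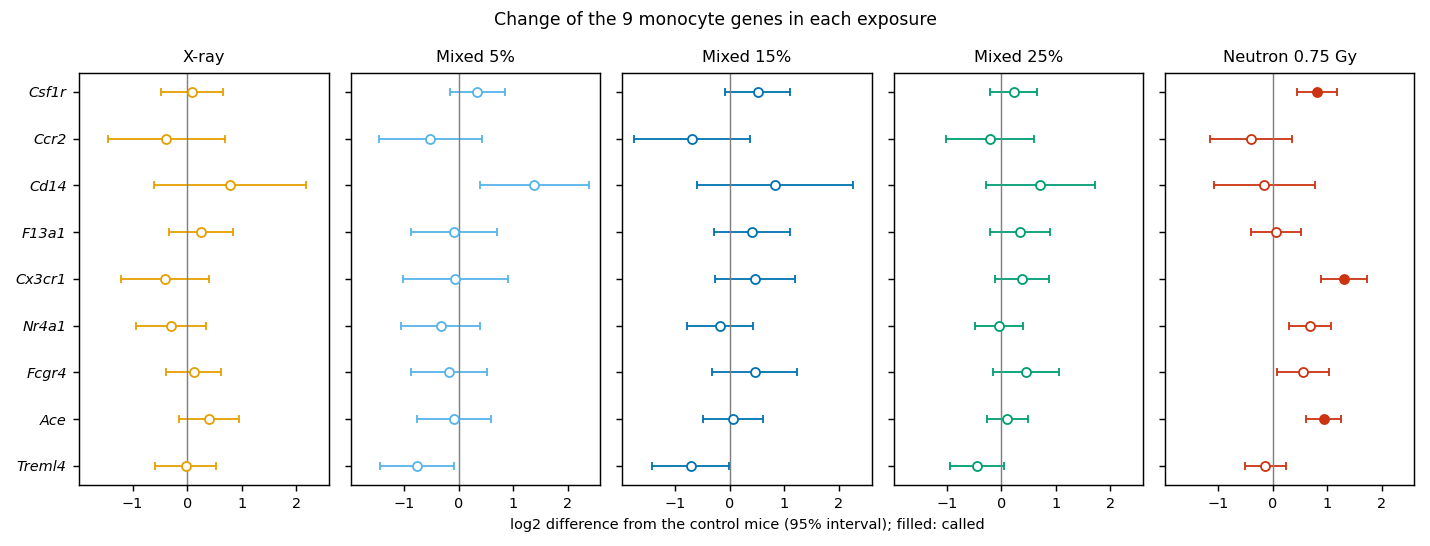
Difference of each of the 9 genes from the controls in each exposure, on the log2 scale (x axis), with the 95% interval from limma on 12 arrays; filled points were called. The filled points are Csf1r (0.82), Cx3cr1 (1.30), and Ace (0.93) after 0.75 Gy neutrons, with arrays centred on their median; all 3 fall below 0 when centred on the spike-in probes or after normexp correction.

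Cx3cr1, the receptor for fractalkine on patrolling monocytes, lay between 6.02 and 6.84 in the controls (median 6.46) and between 7.21 and 8.20 after neutrons (median 7.81). All 6 neutron arrays were above every control array, as they were for 15% of all genes (limma, adjusted p = 9.18e-05). After x-rays its range was 4.42 to 6.92 (median 6.28). In the mixed fields the ranges were 5.01 to 8.05 for 5% (median 6.55), 6.02 to 8.17 for 15% (median 6.75), and 6.29 to 7.30 for 25% (median 6.97). In each of these 4 groups some arrays lay within the range of the controls. The spread within groups was unequal, with an SD of 0.33 in the controls and 0.34 after neutrons, compared with 0.93 after x-rays and 1.18 at 5%. All these levels are those of the brightest probe. A probe of Cx3cr1 that does not overlap it had a lower mean than the controls in each mixed field, and was not called there.

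Ace encodes the angiotensin-converting enzyme, which patrolling monocytes carry and which also lines blood vessels. It lay between 3.60 and 4.40 in the controls (median 3.89) and between 4.65 and 5.07 after neutrons (median 4.88), again with no overlap (limma, adjusted p = 0.000133). After x-rays it ranged from 3.46 to 5.02 and in the 3 mixed fields from 2.49 to 4.63, all overlapping the controls. Its highest value at 25% was 4.14, below the lowest after neutrons.

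Csf1r, the receptor for the growth factors CSF1 and IL-34 in both subsets, lay between 8.65 and 9.47 in the controls (median 9.20) and between 9.64 and 10.11 after neutrons (median 9.90). The groups did not overlap (limma, adjusted p = 0.00109). At 15% it ranged from 8.64 to 10.34, with 5 of 6 arrays above every control, and was not called (difference 0.51 ± 0.28, adjusted p = 0.143).

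Nr4a1, the nuclear receptor on which patrolling monocytes depend, was higher after neutrons in value but was not called. It lay between 7.30 and 8.07 in the controls (median 7.66) and between 7.96 and 8.74 after neutrons (median 8.35), with 5 of 6 arrays above every control. The difference was 0.68 ± 0.18, with an adjusted p of 0.00487 in limma, and the unadjusted p missed the threshold. Fcgr4, an activating Fc receptor for IgG, showed a difference of 0.55 ± 0.22 (adjusted p = 0.0458), with 2 of 6 neutron arrays above every control. Treml4, a surface receptor that binds dying cells, is a patrolling-cell gene with no higher value after neutrons (-0.14 ± 0.17, adjusted p = 0.506). Its values were 2.83 to 3.25 after neutrons and 2.57 to 3.60 in the controls. In the mixed fields Treml4 was at -0.77 ± 0.32 at 5% (adjusted p = 0.0616), -0.72 ± 0.33 at 15% (adjusted p = 0.0839), and -0.44 ± 0.23 at 25% (adjusted p = 0.129), and none of these was called.

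The 3 classical-cell genes were not called after neutrons or after any other exposure against controls. Ccr2 ranged from 4.71 to 7.06 in the controls (median 6.34) and from 5.45 to 5.89 after neutrons (median 5.76), with a difference of -0.40 ± 0.35 (adjusted p = 0.34). The neutron arrays lay inside the wide control range. F13a1, which encodes the A subunit of coagulation factor XIII, ranged from 7.03 to 8.13 in the controls and from 7.27 to 8.17 after neutrons (difference 0.06 ± 0.21, 95% interval -0.40 to 0.52). Cd14, the co-receptor for bacterial lipopolysaccharide, had the widest spread. It ranged from 1.78 to 4.19 in the controls, from 2.34 to 6.47 after x-rays, and from 1.27 to 5.34 at 15%. At 5% Cd14 ranged from 3.05 to 5.37, a difference of 1.39 ± 0.47 (adjusted p = 0.0259) that was not called, with 3 of 6 arrays above every control. After neutrons Cd14 differed from the controls by -0.16 ± 0.43 (adjusted p = 0.766).

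**Figure D2:**
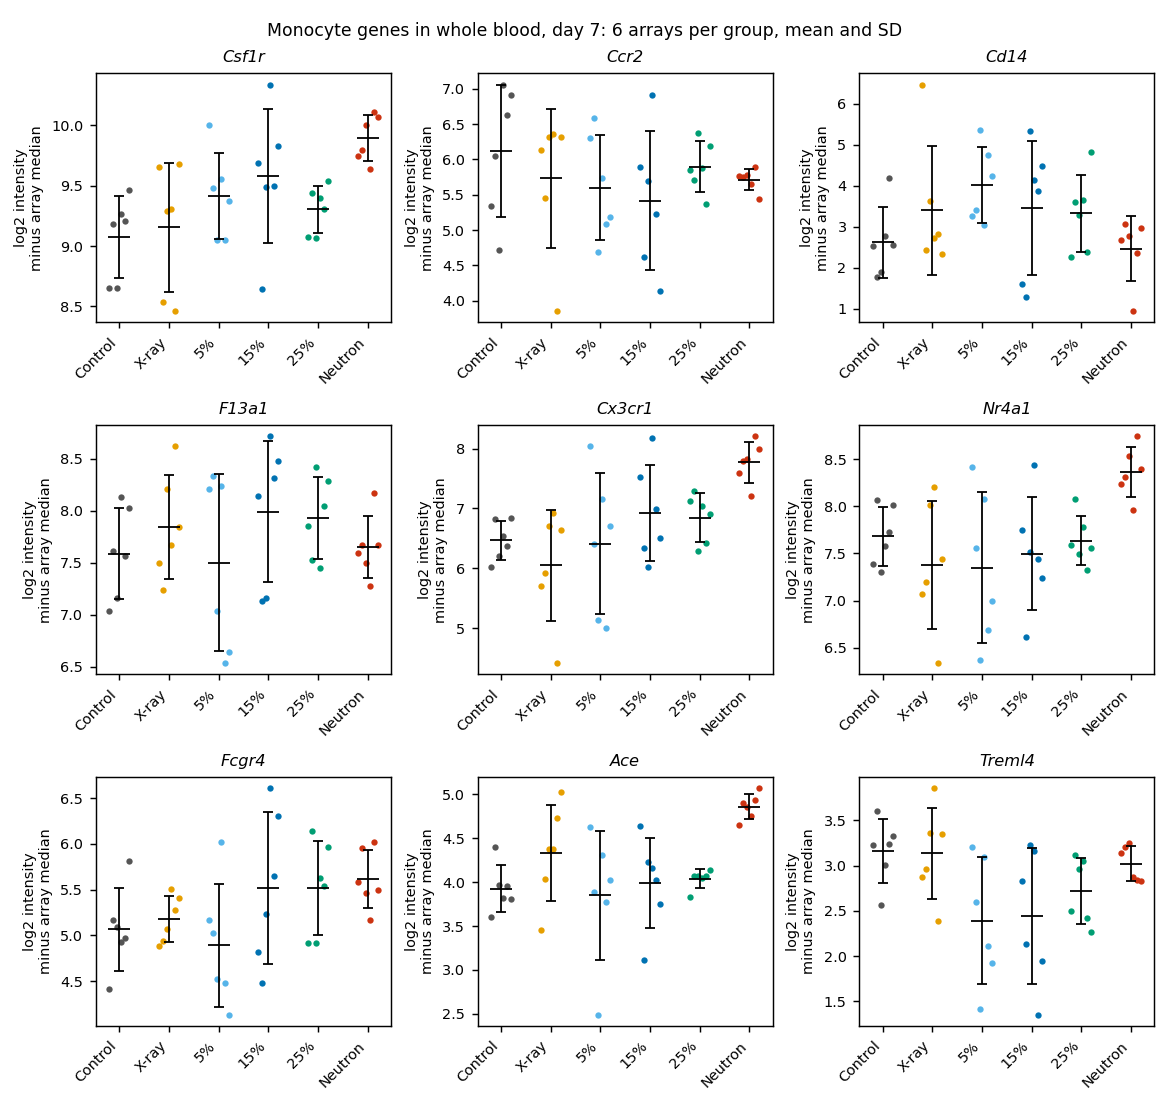
Level of each gene (log2 intensity minus the array median, y axis) on each of 6 arrays per group (points), with the mean and SD (black). After 0.75 Gy neutrons all points of Cx3cr1, Ace, and Csf1r lie above the control points, and those of Ccr2, Cd14, F13a1, and Treml4 do not; on the spike-in scale the means of all 9 genes were below those of the controls.

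The direction of these differences depended on the scaling of the arrays. The median of all genes after neutrons lay at -0.12 when arrays were centred on their median, at 0.15 with the 75th percentile, and at -1.99 when arrays were centred on the spike-in probes, RNA added in a fixed amount. On the spike-in scale Cx3cr1 differed by -0.57 and was not called, whereas Ace (-0.94) and Csf1r (-1.05) were called lower, and all 3 still lay above the median of all genes. After a normexp background correction, all 9 genes had values below 0 and none was called, at a median of all genes of -0.54. Cx3cr1 and Ace still lay above that median, whereas Csf1r, Nr4a1, and Fcgr4 lay below it. The differences given above are therefore relative to the median of the array and not to the added RNA. For Csf1r, Nr4a1, and Fcgr4 their direction relative to the other genes also changed with the background correction.

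**Figure D3:**
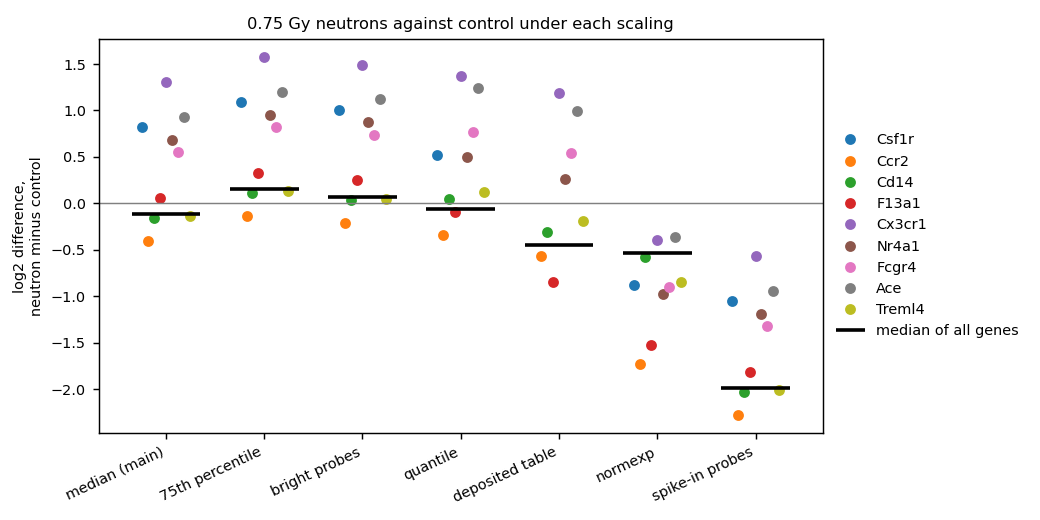
Difference between 0.75 Gy neutrons and controls (log2, y axis) for each gene (points) and the median of all genes (bars) under 7 scalings of the arrays. Csf1r has no point for the deposited table. Cx3cr1 and Ace lie above the bar in every scaling, and with the spike-in probes the bar is at -1.99 and the points lie below 0.

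A difference between 2 genes on the same array does not depend on the value the array is centred on, although quantile normalization and normexp can change it. Only its change between groups can be read, because probes differ in brightness, and the pairs were chosen with the values known. Of 7 pairs computed, 5 did not overlap between neutrons and controls, and the share over all pairs of genes was not computed. Each of the 5 held Cx3cr1, Ace, or Csf1r, which did not overlap on their own either, as was so for 35.2% of all genes. Cx3cr1 minus F13a1 lay between -1.60 and -0.80 in the controls (median -1.10) and between -0.06 and 0.33 after neutrons (median 0.07), without overlap. After x-rays it ranged from -4.20 to -0.74 and at 25% from -2.13 to -0.23. One array at 5% reached 0.06 and was the single array of the 4 exposures of 3 Gy within the range of the neutron group. Cx3cr1 minus Ccr2 lay between -0.52 and 1.49 in the controls and between 1.56 and 2.55 after neutrons. At 15% this difference ranged from 0.32 to 2.36 and overlapped both. Within the patrolling-cell genes, Ace minus Treml4 lay between 0.38 and 1.41 in the controls and between 1.51 and 2.24 after neutrons, whereas the 4 exposures of 3 Gy reached from 0.52 to 2.67 and overlapped both. The 2 pairs that overlapped between neutrons and controls were Nr4a1 minus Ccr2 (0.52 to 2.59 in the controls and 2.30 to 2.95 after neutrons) and Ace minus Ccr2 (-3.24 to -0.74 and -1.12 to -0.38).

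**Figure D4:**
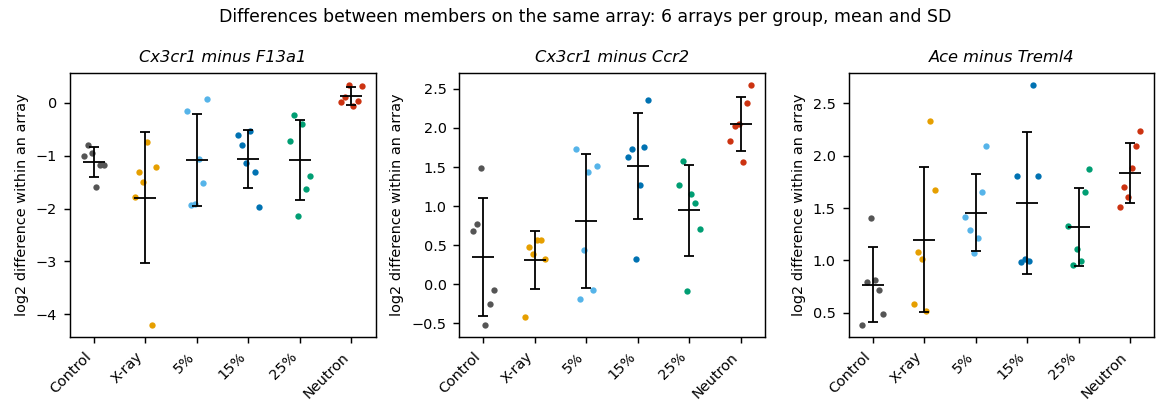
Difference between the log2 levels of 2 genes on the same array (y axis) for 6 arrays per group (points), with the mean and SD. For Cx3cr1 minus F13a1 the neutron points lie between -0.06 and 0.33 and the control points between -1.60 and -0.80.

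The probes of a gene did not all give the same answer. The 3 probes of Csf1r are placed by the array files on chromosome 18 of mm9. The one nearest the 3' end, which represented the gene, differed by 0.82 after neutrons, whereas the other 2 differed by 0.14 ± 0.20 (adjusted p = 0.588) and 0.12 ± 0.14 (adjusted p = 0.455). The call for Csf1r thus rested on 1 of 3 probes, and with the mean of the probes that passed the filters it was 0.48 and not called. The same 2 probes differed after neutrons by 0.18 and 0.09 against x-rays and by 0.33 and 0.45 against the 25% mixed field. At 15% against controls they differed by -0.19 and 0.03, and none of these values was called. Of the 3 probes of Cx3cr1 on chromosome 9, 2 overlap, at 119957811 to 119957870 and 119957806 to 119957865 of mm9, and both were called (each 1.30). The remaining probe, at 119959018 to 119959077, differed by 0.71 ± 0.19 (adjusted p = 0.00588) and was not called. Against controls it differed by -0.71 at 5%, -0.58 at 15%, and -0.35 at 25%. The probe that represented the gene differed by -0.06, 0.46, and 0.38 there, and none of these values was called. Between neutrons and the 25% mixed field the remaining probe differed by 1.06 ± 0.20 (limma adjusted p = 0.00251) and was called. The overlapping probes differed by 0.92 and 0.93 and were not called. The second probe of F13a1 was significantly above background on 35 of 36 arrays but well above it on 15, including 0 of 6 after neutrons. After neutrons it differed from the controls by -0.65 ± 0.31 (limma adjusted p = 0.0855), not called, compared with 0.06 for the probe that represented the gene. With the neutron arrays this near background, the size of that difference is uncertain. Ccr2, Cd14, Nr4a1, Fcgr4, Ace, and Treml4 had 1 probe each, and no probe of the 9 genes was saturated on any array.

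**Figure D5:**
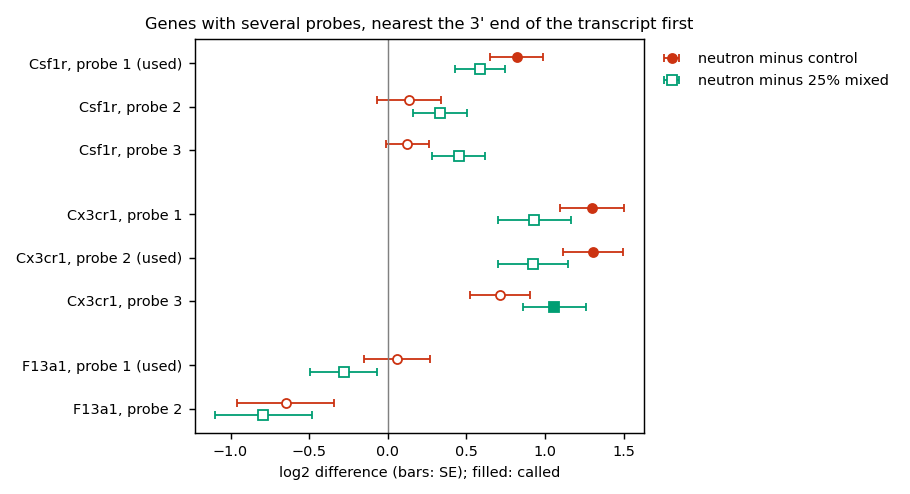
Difference (log2, x axis, bars are SE) for each probe of the 3 genes with several probes, for 0.75 Gy neutrons against controls (circles) and against the 25% mixed field (squares); filled symbols were called, and probes are ordered from the 3' end. For Csf1r against controls, the first probe lies at 0.82 and the others at 0.14 and 0.12.

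The neutron group was next compared with x-rays, a photon exposure of higher total dose, and with the 25% mixed field, which held the same 0.75 Gy of neutrons with x-rays added. These comparisons use the same neutron arrays. Against x-rays, Cx3cr1 was the called gene, at 1.72 ± 0.38 (adjusted p = 0.0046), with all 6 neutron arrays above every x-ray array, where 12.9% of all genes were called, 6.5% were called higher, and 6.53% had all neutron arrays above every x-ray array. Nr4a1 differed by 0.99 ± 0.29 (adjusted p = 0.023) and Csf1r by 0.74 ± 0.24 (adjusted p = 0.0378), each with 5 of 6 neutron arrays above every x-ray array, and neither was called. With spike-in centring Cx3cr1 differed by 0.82 and was not called (adjusted p = 0.149), and F13a1 was called lower (-1.10). The call for Cx3cr1 was lost in 6 of 12 fits that left out 1 array (x-ray replicates 1 and 2, neutron replicates 2, 3, 5, and 6), with a difference of 1.39 to 1.89 over the 12 fits and adjusted p values up to 0.0137.

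Against the 25% mixed field, Ace was the called gene, at 0.82 ± 0.16 (adjusted p = 0.00234), where 11.4% of all genes were called and 4.02% were called higher. For Ace and for Csf1r (0.59 ± 0.18, adjusted p = 0.0254, not called) all 6 neutron arrays were above every mixed field array, as they were for 3.54% of all genes. Cx3cr1 differed by 0.92 ± 0.23 (adjusted p = 0.0116) and Nr4a1 by 0.73 ± 0.20 (adjusted p = 0.016), each with 5 of 6 arrays above every mixed field array. All 12 arrays of this comparison were scanned in 1 session. One slide held arrays of both groups, and with slide as a block Ace differed by 0.67 and was not called (adjusted p = 0.28). Ccr2, Cd14, F13a1, Fcgr4, and Treml4 were not called, with differences from -0.87 for Cd14 to 0.30 for Treml4. Between the 3 mixed fields and x-rays, 0 of 9 genes were called, where 0% of all genes were called at 5%, 4.09% at 15%, and 2.61% at 25%. Of the 9 genes, 0 had an unadjusted limma p below 0.05, a rule for which the share of all genes was not computed.

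Scan session followed the exposures, and the neutron arrays shared no session with the control or x-ray arrays, so that session and neutrons cannot be told apart in either comparison. The 25% arrays of the same session differed from the controls by 0.38 for Cx3cr1, 0.11 for Ace, and 0.23 for Csf1r, none of them called. Within the session that held 5 control and 5 x-ray arrays, Cx3cr1 differed by -0.58, Ccr2 by -0.78, and Cd14 by 0.85, compared with -0.41, -0.38, and 0.78 over all 12 arrays. On the slide that held 1 array each of 4 groups, the 5% array differed from the control array by 2.86 for Cd14 and the 15% array by 3.46, single pairs with no replicate. The number of probes well above background fell from a mean of 20064 in the controls to 17005 after neutrons and 18124 after x-rays (exact two-sided permutation test, p = 0.00216 each, adjusted p = 0.0108 over 10 comparisons), the smallest p that 6 against 6 arrays allow. Its part in the results was not tested.

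Other monocyte genes were read as lists. Of the patrolling-cell list, 6 genes that are not among the 9 were tested, and 2 were called higher after neutrons, the integrin gene Itgal and the scavenger receptor gene Cd36, with a list median of 0.81. Over all genes 16.1% were called higher in this comparison, and Cd36 was also called higher after x-rays (1.90, compared with 1.26 after neutrons). Of the classical-cell list, 8 further genes were tested, and 1 was called higher, Vcan, with a median of -0.01, compared with -0.12 over all genes. Of 10 further genes shared by both subsets, Itgam, an integrin also carried by neutrophils, was called higher in 4 of 5 exposures. It differed from the controls by 3.25 ± 0.22 after neutrons and by 1.28 ± 0.28 after x-rays, and directly between these exposures by 1.97 ± 0.30 (adjusted p = 0.000438). Tlr4, which works with Cd14 in sensing lipopolysaccharide, was called lower after neutrons. The summed level of the whole patrolling-cell list, with the 5 members in it, was 1398 to 1977 times the array median after neutrons and 897 to 1580 in the controls, and that of the classical-cell list was 1415 to 2627 and 1941 to 3045.

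Ligands and signalling partners of these receptors were also read. Over all genes, 9.04 to 16.1% were called higher and 13.9 to 20.5% lower in the 5 comparisons with controls. Of 7 genes tested for ligands and their shedding enzymes, 0 were called after neutrons. Il34, which encodes a ligand of Csf1r, was called higher after x-rays (1.54), at 15% (1.40), and at 25% (1.41), and differed between neutrons and the 25% mixed field by -1.08 ± 0.26 (adjusted p = 0.00794). Of 6 signalling partners tested, Ptpn6, a phosphatase that restrains Csf1r signals, was called lower in all 5 exposures, from -1.23 after neutrons to -2.20 at 15%. Of 13 transcription factors tested, Klf2 was called lower in all 5 exposures, from -1.36 after neutrons to -2.20 at 15%, and so was Irf4, from -1.07 to -2.49 in the same groups. Pou2f2 was called lower after the 4 exposures of 3 Gy and was higher after neutrons than after x-rays by 1.21 ± 0.27 (adjusted p = 0.00495). These 3 factors are also made by lymphocytes. Nr4a2, a relative of Nr4a1, was called higher after neutrons.

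Markers of other blood cells differed in how many were called. Over all genes, 16.1% were called higher and 20.5% lower after neutrons. After the exposures of 3 Gy, 13.9 to 16.9% of all genes were called lower. Of 10 B-cell markers, 10 were called lower after each exposure of 3 Gy and 9 after neutrons, and their summed level was 922 to 1252 times the array median after neutrons, 65 to 623 after x-rays, and 2212 to 3955 in the controls. Of 10 red-cell markers, 9 were called higher after neutrons, with sums of 49458 to 81342 compared with 21295 to 28355 in the controls. Of 12 neutrophil markers tested, 4 were called higher after neutrons and 1 lower, with sums of 5180 to 17409 compared with 2588 to 14835. Of 10 markers of natural killer cells, 0 were called after neutrons, with sums of 963 to 2540 compared with 891 to 1836, and of 10 platelet markers 1 was called higher. After neutrons 1 of 10 T-cell markers was called lower, 1 of 8 dendritic-cell markers was called higher and 2 lower, and 1 of 8 basophil, mast-cell, and eosinophil markers was called lower. The part of these other cells in the values of the 9 genes was not tested.

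Within groups, the 9 genes fell into pairs that varied together to different degrees. Over the 36 arrays, taken as deviations from group means, Pearson's r was 0.90 for Cx3cr1 with Nr4a1, 0.77 for Nr4a1 with Treml4, 0.73 for Csf1r with Nr4a1, and 0.72 for Ccr2 with Nr4a1. Cd14 stood apart, with r between -0.32 and 0.33 to the other 8 genes. The arrays share their scaling, signal level, and cell makeup, so these values are descriptions. Of all genes tested, those most like Cx3cr1 were Bmf (0.94), Adrbk2 (0.92), and Ear2 (0.91), and those most like Nr4a1 were Adrbk2, Cx3cr1, and Ear2 (each 0.90). Those most like Treml4 were the ribonuclease genes Ear10 and Ear12 (each 0.88) and Nxpe4 (0.87), although the near-identical Ear genes may share signal on the array. Ccr2 was most like Ms4a6c (0.95), AI607873 (0.95), and Tnfrsf1b (0.93), whereas Cd14 was most like Mst1r (0.94), Padi4, an enzyme of neutrophils (0.93), and Cfp (0.93). Among the genes most like Csf1r were Cmtm7 (0.92) and S100a4 (0.91), and F13a1 was most like I830077J02Rik (0.94), Cd93 (0.90), and Dgkg (0.88). For Fcgr4 (A530064D06Rik, 0.81) and Ace (Trp63, 0.75) the closest gene was less alike.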

How the data were processed

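The scanner intensities deposited by the authors are linear values, per the file headers corrected for background within the array by Agilent Feature Extraction 12.0.2 (version per the submitters' processing notes) on probes annotated to mm9, and not normalized between arrays. The deposited log2 table of the series, normalized and filtered by the authors, was used as an alternative and gave no value for Csf1r. Excess globin RNA had been reduced before labelling. Intensities were log2-transformed, spots of a probe averaged without non-uniform spots, and arrays centred on their median. A probe was kept if over 75% of the 36 arrays gave a uniform spot with signal significantly over background (21484 probes) and if at least 20% of arrays departed 1.5-fold from its median (17963 probes), and the brightest probe of a gene gave 15085 genes. Two-group limma fits used the 12 arrays of a comparison (R 4.3.3, limma 3.58.1, and the data.table package, version 1.17.8; figures with matplotlib 3.10.9). The fits were tested on simulated data. Arrays give no sequencing depth, and precision is given by the spread of 6 arrays per group. The methods name 6 mice per treatment, and the design text of the series calls them independent experiments.

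The 9 genes and all lists were chosen with earlier results of these data known. Beyond the 9 genes, listed genes called in at least 3 of 5 comparisons with controls could be given with values, up to 4 per list, and for each of the 9 the 3 genes with the highest correlation; Itgal, Cd36, Vcan, Tlr4, and Nr4a2 were named after their values were seen, as they make up counts of 5 or fewer. Alternatives changed the centring (75th percentile, bright probes, spike-in probes), normalization (quantile, normexp with offset 50), filters, probe summary, model (36 arrays, blocks for replicate number, slide, or scan session, array weights), threshold, or left out each array. Slides (10) and sessions (4) were numbered from the file headers. Some results on further genes are not reported here.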

Additional observations from a re-analysis of the deposited data

Results flagged for a closer look

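In 4 of the 54 gene and group combinations of 6 arrays, 1 array lay far from the others, by Dixon's test of the gap to the next array over the range of the group at the 95% level, which chance gives in about 1 in 20 groups. Ccr2 was lowest on x-ray replicate 5 (3.85, with the next array at 5.45), which also had few probes well above background (16548). Cd14 was highest on x-ray replicate 1 (6.47, with the next at 3.62) and lowest on neutron replicate 4 (0.94, with the next at 2.36). Ace was lowest on replicate 1 of the 25% mixed field (3.83, with the next at 4.05).

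A difference between exposures was itself called by limma for 2 genes. Cx3cr1 was higher after neutrons than after x-rays by 1.72 (adjusted p = 0.0046), and Ace was higher after neutrons than after the 25% mixed field by 0.82 (adjusted p = 0.00234).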

How the results depend on the processing

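A change of sign was counted as a reversal where the 95% interval excluded 0, or the gene was called, in either fit. This rule was set after the values had been seen. Over all comparisons and alternatives, 168 of 1382 values of the 9 genes changed sign and 36 reversed. Leaving out 1 array changed the sign of 60 of 1080 values and reversed 0. No gene was called against controls after x-rays, at 15%, or at 25%, nor between the mixed fields and x-rays, under any alternative run or without any 1 array. At 5%, 7 genes were called with spike-in centring, where the median of all genes lay at -1.44. With the adjusted p alone 1 passed (44.5% of all genes). The share of all genes called was not computed for alternatives other than the adjusted p alone. Their counts, here and below, therefore have no background.

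After neutrons against controls, the count of 3 became 5 with the 75th percentile and with bright probes. With the adjusted p alone it was also 5, compared with 59.6% of all genes. The count was 8 with spike-in centring, all lower, at a median of all genes of -1.99. It was 0 after normexp and 0 in one model over 36 arrays. It was 2 to 4 when 1 array was left out. Csf1r was lost without neutron replicate 3, 5, or 6, with quantile normalization (0.53), and with the mean of its probes (0.48). Fcgr4 was called with quantile normalization (0.77), Nr4a1 with array weights (0.67), and both with the 75th percentile (0.82 and 0.95) and with bright probes (0.74 and 0.87). Cx3cr1 and Ace were called in 12 of 12 fits that left out 1 array.

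Against x-rays, the count of 1 became 0 after normexp, with the mean of probes, and with the replicate block. It was 3 with the adjusted p alone (28.1% of all genes) and 0 to 1 when 1 array was left out. With spike-in centring it was still 1, but the called gene was F13a1 (-1.10) and not Cx3cr1 (0.82). Against the 25% mixed field, the count of 1 became 3 with the 75th percentile and with bright probes, and 4 with quantile normalization. With the adjusted p alone it was also 4, compared with 26.1% of all genes. The count was 2 with probes well above background on all 12 arrays, with the mean of probes, and with array weights. It was 0 after normexp, in the deposited table, in one model, with the replicate block, and with slide as a block. It was 1 to 2 when 1 array was left out, with Cx3cr1 added without neutron replicate 4. The replicate block moved no other count. Same-numbered arrays did not deviate together (mean r 0.04, from -0.75 to 0.74 over 90 pairs), so the numbers were not taken to pair the mice.

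With spike-in centring, reversals against controls after x-rays were Csf1r (-0.89), F13a1 (-0.72), Fcgr4 (-0.86), and Ace (-0.57), at 5% Csf1r (-1.02), at 15% F13a1 (-0.88) and Ace (-1.22), at 25% Ace (-0.74), and after neutrons Csf1r (-1.05), F13a1 (-1.81), Cx3cr1 (-0.57), Nr4a1 (-1.19), Fcgr4 (-1.32), and Ace (-0.94). Between neutrons and x-rays they were Csf1r (-0.16) and Ace (-0.37), and between neutrons and the 25% mixed field Csf1r (-0.43), Cx3cr1 (-0.10), Nr4a1 (-0.29), Fcgr4 (-0.93), Ace (-0.20), and Treml4 (-0.72). After normexp they were Cd14 at 5% (-0.094), Csf1r (-0.88), Cx3cr1 (-0.40), Nr4a1 (-0.98), Fcgr4 (-0.90), and Ace (-0.36) after neutrons against controls, Csf1r (-0.080) and Ace (-0.043) against x-rays, and Csf1r (-0.42), Cx3cr1 (-0.12), and Nr4a1 (-0.24) against the 25% mixed field. F13a1 after neutrons was -0.85 in the deposited table, and Treml4 at 15% was 0.66 with slide or scan session as a block, which leaves 1 pair of arrays. The cause was not tested.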
